A study of Mus musculus with 2 samples.

Results

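The genes described here are 10 genes of the response to low oxygen that runs through the hypoxia-inducible factor HIF, taken out of 17302 genes that a RefSeq accession on the array could name. They are the HIF subunit Hif1a, the HIF prolyl hydroxylases Egln1 and Egln3, and the HIF-responsive genes Bnip3, Ndrg1, Eno2, Vegfa, P4ha1, Kdm3a and Ankrd37. Every non-control probe whose accession belongs to one of these genes was kept, which gave 17 probes on 26 spots. The list was drawn up with the values of these same arrays in view, so the differences below describe the genes and are no evidence for a HIF response.

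RNA came from mouse hybridoma cells labelled 1H5F9, hybrids of a B cell and a myeloma cell that secrete antibody. The cells were kept for 4 h in RPMI 1640 with serum under 5% CO2, with 0 µg/ml (untreated) or 5 µg/ml of BSP-II, a peptide from the bursa of Fabricius, the organ of B cell development in birds. Each dose is represented by 1 array labelled replicate 1, both on 1 slide, so nothing below could be tested or checked against a second culture. The series describes 2 experiments on separate cells, of which the second was not analysed here. No label mentions a change of oxygen, and "higher" and "lower" refer to the BSP-II array against the untreated array.

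HIF is a pair of an oxygen-sensitive alpha subunit, such as the product of Hif1a, and the stable partner ARNT. When oxygen is plentiful, the EGLN enzymes hydroxylate prolines of the alpha subunit, which the VHL ubiquitin ligase then recognises and sends for degradation. When oxygen is scarce, or when the EGLN enzymes lack iron or 2-oxoglutarate, the alpha subunit accumulates and activates genes of glucose uptake, glycolysis, vessel growth, mitophagy and matrix synthesis. HIF-1 alpha is controlled mainly at the level of the protein, which arrays of RNA do not measure.

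All 10 genes were detected (well above background) on each array and all were higher with BSP-II, by log2 differences from 0.10 (Hif1a) to 1.04 (Eno2). Their median was 0.39, a 1.31-fold difference, where the median of all 12862 genes measured on both arrays was −0.03. At least 1.2-fold higher were 6 of the 10 genes, and at least 1.5-fold higher were 3, namely Eno2, Ndrg1 and Egln3. Of all genes measured, 8.66% were at least 1.2-fold higher, 18.1% at least 1.2-fold lower, 1.21% at least 1.5-fold higher and 44.7% above 0. No share of the 10 is read against these values, because the genes were chosen on this contrast.

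**Figure D1:**
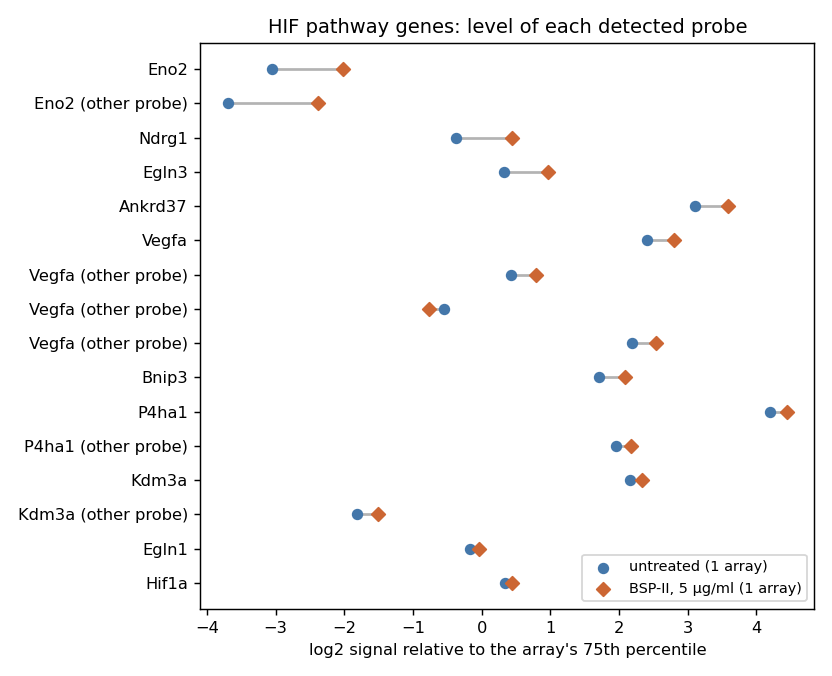
Level of each detected probe of the 10 genes on the untreated array (blue circles) and the BSP-II array (orange diamonds), as log2 signal relative to the 75th percentile of that array. In 15 of the 16 probes the BSP-II value lies to the right; levels of different probes are not comparable with each other.

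The processed signal is spot brightness after background subtraction. The 75th percentile of the signal was 309 without and 356 with BSP-II, and each array was divided by its own value before differences were taken, so a difference is smaller than the ratio of the signals given here. The scanner software's error of each spot, carried to the difference, had a median of 0.21 on the log2 scale over all detected spots and is given after ± below. It covers the spot only, not cultures, RNA samples or hybridisations. Probes well above background numbered 24681 without and 27283 with BSP-II, and no spot was saturated.

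The label of the cells was met by their markers. All 14 B cell and plasma cell markers were detected on each array, with Jchain, the joining chain of secreted antibody, at signals of 150869 and 155073. Their median log2 difference was −0.16, with 2 of 14 above 0. Of the 6 T cell markers 4 were detected on both arrays, of 4 endothelial markers 1 (Pecam1) and of 4 fibroblast markers 2. Of the 4 myeloid markers with a probe 2 were detected, and of the 2 erythroid markers with a probe 1 (Hba-a1, at 184 and 183). The myeloid marker Cd68 and the erythroid marker Hbb-bs had no probe that could be named. The summed signal, not scaled, of the detected T cell markers was 383 without and 338 with BSP-II, that of fibroblast markers 54.3 and 56.5, and that of myeloid markers 77.4 and 142. The myeloid sum moved with the brighter probe of Csf1r, from 48.4 to 104, or 0.90 on the log2 scale; the second Csf1r probe went the other way, by −0.75, and Lyz2 was not well above background on either array. All 4 epithelial markers were detected, with a sum of 4612 and 5436, most of it Epcam. The part of these cells or genes in the differences below was not tested, and more cells expressing a gene cannot be told apart from more RNA per cell.

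The regulators differed less than most of the targets, with Egln3 as the exception. Hif1a (NM_010431), which encodes the oxygen-sensitive subunit HIF-1 alpha, had a signal of 391 without and 482 with BSP-II. Its log2 difference was 0.10 ± 0.20, which lies within the error of a single spot, and 26.6% of all genes measured had a larger one. Egln1 (also PHD2, NM_053207), the main oxygen sensor among the HIF prolyl hydroxylases, went from 275 to 347, a difference of 0.13 ± 0.20. Its other probe was not well above background on either array, with signals of 2.75 and 1.74, so Egln1 also rests on 1 spot.

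Egln3 (also PHD3, NM_028133), a prolyl hydroxylase that HIF itself induces, went from 386 to 698. Its log2 difference was 0.65 ± 0.20, a 1.57-fold difference, and 0.894% of all genes had a larger one. The single spot of Egln3 had 2 or more neighbours, no farther than 3 rows and columns, that differed 2-fold or more the same way as each other, and this was true of no other representative probe of the 10 genes. The median difference around it, over 10 rows and columns to each side, was −0.03. The part of the neighbouring spots in the value of Egln3 was not tested.

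Of the targets, Eno2 had the largest difference. Eno2 (NM_013509) encodes the gamma, or neuronal, enolase, which converts 2-phosphoglycerate to phosphoenolpyruvate. Its brighter probe went from 37.1 to 88.2, a difference of 1.04 ± 0.23. Its second probe, elsewhere on the array, went from 24.0 to 68.3, a difference of 1.30 ± 0.26. Both probes thus put Eno2 at least 2-fold higher, but at low signals. Without background subtraction its difference was 0.49, and with normexp correction 0.52.

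Ndrg1 (NM_008681), a gene induced by hypoxia and other stresses, was measured by 1 probe, which went from 238 to 485. Its difference was 0.82 ± 0.20, or 1.77-fold, and 46 of the 12862 genes had a larger one, a rank that only describes a gene chosen on this contrast. Ankrd37 (NM_001039562), an ankyrin repeat gene that HIF-1 induces, went from 2654 to 4277, a difference of 0.48 ± 0.20. Bnip3 (NM_009760), which encodes a mitochondrial outer membrane receptor for mitophagy, went from 1010 to 1513, a difference of 0.38 ± 0.20. The differences of Eno2, Ndrg1, Egln3 and Ankrd37 exceeded 2 times the spot error. Those of Hif1a, Egln1 and Kdm3a, by the brighter probe, lay within it. The share of all genes beyond these limits was not worked out. Over all genes the SD of the differences was 0.31, larger than the median spot error of 0.21.

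Vegfa encodes the vessel growth factor VEGF-A and is the best measured of the 10 genes, with 4 probes on 13 spots. The brightest probe (NM_001025250) went from 1635 to 2494, a difference of 0.40 ± 0.20. A second probe for that transcript was printed on 10 spots spread over the array. Without BSP-II its signals were lowest at 1325, had a median of 1401 and were highest at 1473, and with BSP-II these values were 1954, 2104 and 2220. These signals are not scaled. After scaling, the highest log2 level of the 10 spots was 2.25 without BSP-II and the lowest was 2.46 with it. How many other probes with repeat spots are also apart was not worked out, so nothing is read from this. The differences of the 10 spots ran from 0.30 to 0.41, with a mean of 0.36 and an SD of 0.04. This describes repeat spots of 1 hybridisation and not replicate cultures.

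The remaining 2 probes of Vegfa, both assigned to the transcript NM_001025257, did not go the same way. One went from 417 to 618, a difference of 0.36 ± 0.20, like the probes above. The other went from 211 to 208, a difference of −0.22 ± 0.20, and was the only one of the 16 detected probes that was lower with BSP-II. Probe sequences were not used here, so which exons or transcripts these probes read cannot be said.

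**Figure D2:**
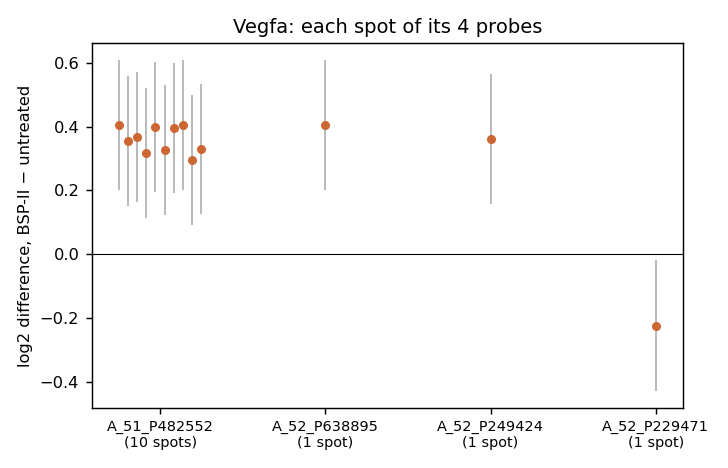
Log2 difference, BSP-II minus untreated, of each of the 13 spots of the 4 Vegfa probes; bars show the scanner software's error of the spot. The 10 repeat spots lie between 0.30 and 0.41, and 1 probe lies at −0.22.

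P4ha1 and Kdm3a encode enzymes that, like the EGLN enzymes, use oxygen and 2-oxoglutarate. P4ha1 (NM_011030), the catalytic subunit of the collagen prolyl 4-hydroxylase, went from 5662 to 7728 by its brighter probe, a difference of 0.24 ± 0.20. Its second probe went from 1201 to 1607, a difference of 0.22 ± 0.20. Kdm3a (NM_173001), a histone H3 lysine demethylase, went from 1387 to 1789, a difference of 0.16 ± 0.20, while its dimmer probe, assigned to NM_001038695, went from 87.5 to 126, a difference of 0.32 ± 0.21. The probes of each of these genes differed from each other by less than the spot error.

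In descending order the differences were those of Eno2, Ndrg1, Egln3, Ankrd37, Vegfa, Bnip3, P4ha1, Kdm3a, Egln1 and Hif1a. None of the 9 steps between neighbours in this order exceeded the combined spot error of the neighbours. The distance between the ends, 0.95, did. The 3 regulators had a median of 0.13 and the 7 targets a median of 0.40.

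**Figure D3:**
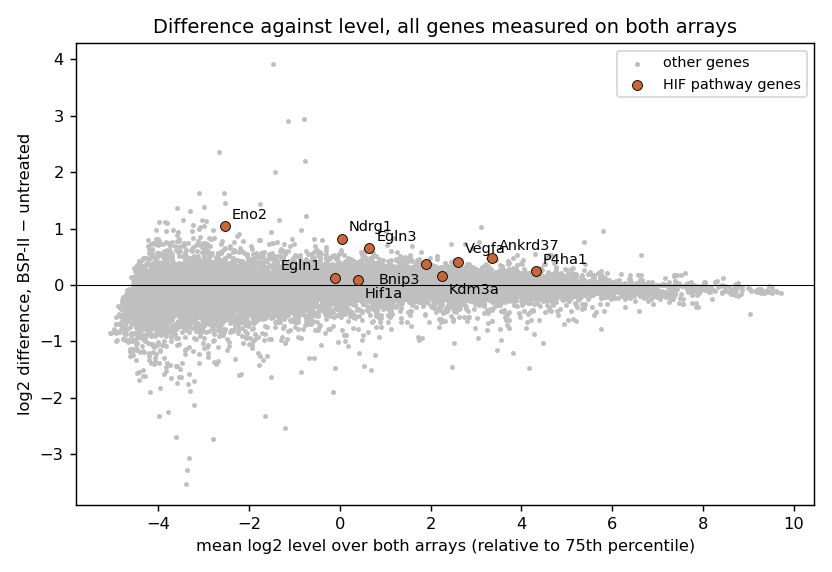
Log2 difference, BSP-II minus untreated, against the mean log2 level of each of the 12862 genes measured on both arrays; orange points are the 10 HIF pathway genes and grey points all others. Eno2 lies at a level where the differences of other genes spread widely, and Ankrd37, Vegfa and Bnip3 lie where the spread is narrower.

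The spread of the differences was smaller among brighter genes: their SD was 0.18 over the 6431 genes at or above the median level and 0.39 over the others. Of the 10 genes, 7 lay at or above the median level, and of the 6431 genes there 0.28% were at least 1.5-fold higher and 4.76% at least 1.2-fold higher. Of those brighter genes, 0.56% had a larger difference than Ankrd37. For Vegfa this share was 1.14% and for Bnip3 1.43%, while for Hif1a it was 24.2%. These shares only describe the genes, which were chosen on this contrast.

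Promoters of HIF-responsive genes are known for hypoxia response elements, whose core is spelled ACGTG or GCGTG. These letters were looked for on both strands of the RefSeq promoter windows (GRCm38.p6), each with 250 bases before and 50 bases after an annotated start; on the opposite strand the same cores read CACGT and CACGC, and CACGTG holds ACGTG on both strands. The table matched 9 of the 10 genes (not Ndrg1), with 12 windows. ACGTG was found in 7 of the 12 windows and either core in 8, while of all 32851 windows 19.6% held ACGTG and 43.8% held either. Both cores contain CG, and these shares were not matched for CG pairs, which ran from 0 to 60 over the 12 windows. For Vegfa and Kdm3a, another window of the same gene held neither core. The Vegfa window with cores (chr17:46025114-46025413, minus strand) lies downstream of the one without (chr17:46032328-46032627). Its cores thus lie between the annotated starts and not before the first of them. The stretches below, 5′ to 3′ on the gene's strand and all upstream of the start, are those of 3 genes that were at least 1.2-fold higher and of Hif1a, which differed least; capitals mark the cores.
Egln3, chr12:54204054-54204124, minus strand: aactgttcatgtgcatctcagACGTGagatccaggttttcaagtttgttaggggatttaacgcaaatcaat
Bnip3, chr7:138909507-138909668, minus strand: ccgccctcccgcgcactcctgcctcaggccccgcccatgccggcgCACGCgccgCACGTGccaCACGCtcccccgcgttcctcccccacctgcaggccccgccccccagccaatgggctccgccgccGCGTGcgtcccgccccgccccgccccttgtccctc
Ankrd37, chr8:45999851-46000100, minus strand: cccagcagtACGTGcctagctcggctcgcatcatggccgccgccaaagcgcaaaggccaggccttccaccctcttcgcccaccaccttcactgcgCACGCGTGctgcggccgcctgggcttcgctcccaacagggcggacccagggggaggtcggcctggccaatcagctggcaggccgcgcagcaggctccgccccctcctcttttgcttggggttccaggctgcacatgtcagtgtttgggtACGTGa
Hif1a, chr12:73907687-73907846, plus strand: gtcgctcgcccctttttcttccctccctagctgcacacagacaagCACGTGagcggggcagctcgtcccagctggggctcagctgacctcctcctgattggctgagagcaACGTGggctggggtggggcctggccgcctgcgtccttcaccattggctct

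The number of cores did not follow the size of the difference among these genes. Bnip3 had 5 matches upstream of its start, beginning 117 bases before it, and a difference of 0.38. Ankrd37 had 4 and a difference of 0.48. Egln3 had 1, at 229 bases before the start, and a difference of 0.65, while Hif1a had 3 and a difference of 0.10. Eno2, which differed most, had none in its window. Of the other genes with a window, P4ha1 had 3 matches and a difference of 0.24, and Egln1 had 2 and 0.13. Vegfa had 2, only in its downstream window, and a difference of 0.40. Kdm3a had 1, in 1 of its windows, and a difference of 0.16. A match is a description of the letters and no evidence of binding, and nothing follows from a window without one.

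The other subunits and regulators of HIF lay on both sides of the median of all genes. Of 25 such genes 24 were measured, with a median log2 difference of −0.01, which was 0.11 when each array was scaled to its median. Above the median of all genes lay 13 (as 50% of all genes do). At least 1.2-fold higher were 5 (8.66% of all genes) and at least 1.2-fold lower 3 (18.1% of all genes). Arnt, the constitutive partner of HIF-1 alpha, went from 429 to 526, a difference of 0.09, with 0.17 at its other probe. Epas1, which encodes HIF-2 alpha, was near background, at 24.8 and 29.4, a difference of 0.04. Hif1an, the asparagine hydroxylase that blocks HIF's binding to its coactivators, differed by 0.08, with −0.02 at its other probe, and by −0.03 with normexp correction. The largest differences were those of Crebbp, a histone acetylase and HIF coactivator (−0.68, at signals of 31.7 and 22.7), the circadian factor Arntl (−0.46), Cul2, the cullin of the VHL ligase (0.37, other probe 0.24), and Arnt2 (0.33, at 22.7 and 32.9). Vhl itself had no probe that could be named.

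Members of the same families went both ways. Egln2, the prolyl hydroxylase that hypoxia does not induce, went from 1657 to 1712, a difference of −0.16 ± 0.20, against 0.65 for Egln3. The ubiquitous enolase Eno1 differed by 0.13 and the muscle enolase Eno3 by −0.13, against 1.04 for Eno2. Bnip3l (also NIX), a mitophagy receptor related to Bnip3, differed by 0.15, with 0.24 at its other probe, and Bnip1 (other probe 0.03) and Bnip2 by −0.06 and −0.01, which were 0.06 and 0.11 with median scaling. Of the relatives of Ndrg1, Ndrg3 differed by 0.05 (other probe −0.04), Ndrg4 by 0.15 (other probe −0.22, and −0.02 with normexp correction) and Ndrg2 by 0.47, the last at signals of 45.3 and 72.4. P4ha2 differed by 0.18 and Kdm3b by −0.16.

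The VEGF family also went both ways. Vegfb, which encodes VEGF-B and which hypoxia is not known to induce, went from 3704 to 5966, a difference of 0.48 ± 0.20, with 0.23 at its other probe. The placental growth factor gene Pgf went from 82.5 to 71.8, a difference of −0.40 ± 0.21. Vegfd differed by 0.11, and Vegfc was not well above background on either array. Of the 17 family members measured, 2 were at least 1.2-fold higher and 1 was at least 1.2-fold lower, and their median was 0.06. Of all genes these shares were 8.66% and 18.1%. With median scaling 5 were higher (19.9% of all genes) and 1 lower, with a median of 0.18. With 1 array a dose, none of these contrasts within a family could be tested. The 10 genes were also chosen on these values, which favours a larger difference in them than in their relatives.

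**Figure D4:**
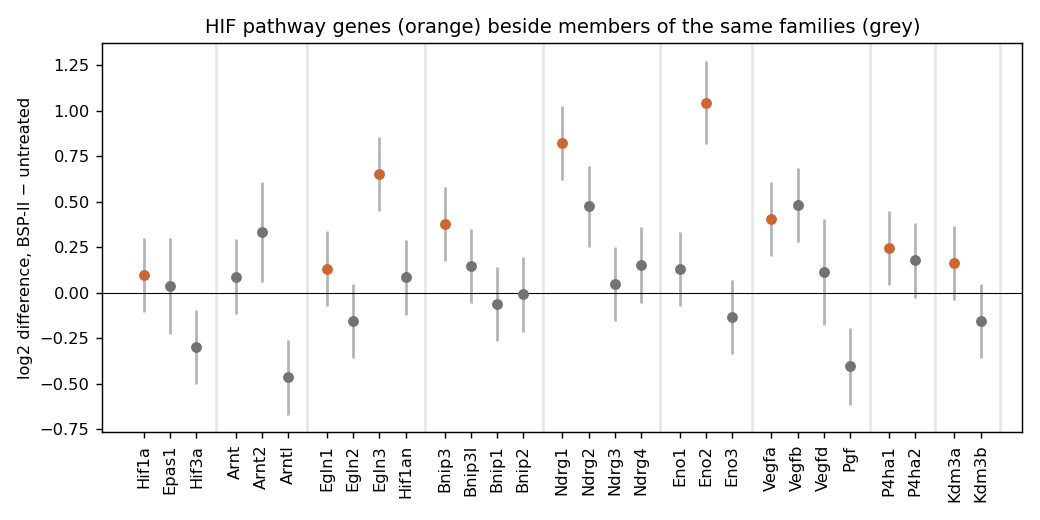
Log2 difference, BSP-II minus untreated, of the HIF pathway genes (orange) beside members of the same families (grey), each by its brightest probe; bars show the scanner software's error of the spot. Egln3 (0.65), Eno2 (1.04) and Ndrg1 (0.82) stand above their relatives, while Vegfb (0.48) stands beside Vegfa (0.40). The orange genes were chosen on this contrast, so nothing is read from their standing higher.

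Other genes known to respond to hypoxia, most of them not glycolytic enzymes, leaned to the higher side. Of 54 such genes 46 were measured, with a median of 0.13. At least 1.2-fold higher were 12, at least 1.5-fold higher 2 and at least 1.2-fold lower 1. Of all genes these shares were 8.66%, 1.21% and 18.1%. Hk2 and Aldoc are also counted among the glycolytic enzymes below, and Cited2 among the HIF regulators above. Scaling each array to its median added 0.12 to every difference and made 22 of these genes, and 19.9% of all genes, at least 1.2-fold higher. Among genes measured on both arrays, the largest differences were those of the early response gene Ier3 (0.74, from 85.4 to 164), the small MAF factor Maff (0.62, from 49.3 to 87.1), the mTORC1 inhibitor Ddit4 (0.54, from 25444 to 42635) and the circadian repressor Bhlhe40 (0.53, from 92.6 to 154). All of these are also induced by stresses other than hypoxia. Slc2a1, the glucose transporter GLUT1, went from 6157 to 9865, a difference of 0.47, and Pdk1, a kinase that inhibits pyruvate dehydrogenase, from 453 to 618, a difference of 0.24. Car9, a carbonic anhydrase and textbook HIF-1 target, went from 33.1 to 32.6, a difference of −0.23 near background. Ppp1r3c, a glycogen-targeting subunit of protein phosphatase 1, was above background on the BSP-II array only, at 28.9, and was at least 2.12-fold higher, the bright signal being set against the lowest detected signal of the untreated array. Epo was also above background on that array only, at a signal of 11.0, too low to show any fold.

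Of the 18 enzymes of glycolysis, all were measured and 16 lay above 0, with a median of 0.15. At least 1.2-fold higher were 3, or 9 with median scaling. Of all genes 44.7% lay above 0 and 8.66% were at least 1.2-fold higher, or 19.9% with median scaling. Eno2, which is also among the 10 genes chosen on this contrast, was first. The phosphofructokinase gene Pfkp (0.35, other probe −0.13) and the hexokinase gene Hk1 (0.26, other probes from −0.54 to 0.35) followed. Ldha and Pgk1, both textbook HIF-1 targets, differed by 0.01 (other probe 0.02) and 0.02 (other probe 0.13). The control genes Actb (at signals of 218 and 244) and Gapdh differed by −0.04 and 0.06, with −0.04 at the other probe of Gapdh. Gapdh is also counted among the 18 enzymes, so it is no control apart from them. Median scaling added 0.12 to each of these values, which put Actb at 0.08.

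**Figure D5:**
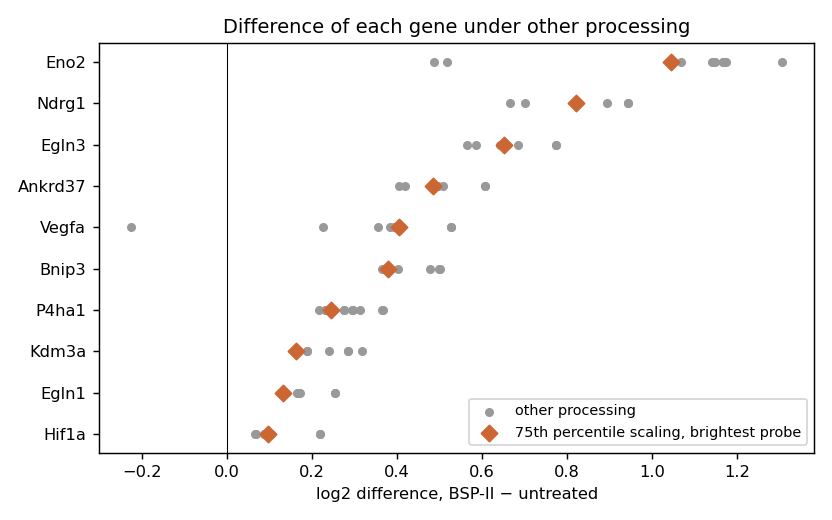
Log2 difference, BSP-II minus untreated, of each of the 10 genes by the processing described here (orange diamonds) and under other processing (grey points). All points lie above 0 except the dimmest Vegfa probe, at −0.22, and Eno2 spans the widest range, from 0.49 to 1.30.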

How the data were processed

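RNA was hybridised to single-colour (Cy3) Agilent arrays. Per the submitters' processing notes, Agilent Feature Extraction was used in version 10.5.1.1. Per the file headers, the deposited intensity columns hold a background-subtracted signal with its error and the raw median brightness of the spot and its local background. The authors' deposited value table is on a log2 scale; each column is the processed signal on the log2 scale, shifted by 1 constant (to within 0.001 for 99.8% of its 23296 probes), and how it was centred stays unknown; its column medians were 2.88 and 2.99.

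The log2 processed signal was reduced by each array's 75th percentile. Control spots and 189 outlier spots were dropped, and log2 values were averaged over a probe's spots. Accessions that belong to 1 gene of a RefSeq table (GRCm38.p6, used for names) named 25091 probes. A gene was measured if it had a probe flagged well above background on each array, and the probe of highest mean level stood for it. Positions of neighbouring spots used only spots well above background. The arrays' number limits the precision. The members and lists were chosen with earlier results of these data known. Named are all members, their relatives, a few fixed genes and up to 4 genes per list with the largest difference; some are not reported here. The steps were tested on simulated data. Python 3.11.15, numpy 2.4.6, pandas 2.3.3, statsmodels 0.14.6, matplotlib 3.10.9, R 4.3.3 and limma 3.58.1 were used.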

Additional observations from a re-analysis of the deposited data

How the results depend on the processing

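Under 12 other ways of processing, 115 of 116 values of single genes stayed above 0, the exception being Vegfa at −0.22 by its dimmest probe. Many of these values could not move, so the count is no measure of robustness. Dropping the filter on dim probes, keeping only brighter genes and leaving out spots with 2-fold different neighbours repeated the value of each gene left. The choice of probe cannot change a gene with 1 detected probe. The members' median of 0.39 became 0.51 with median scaling and 0.51 in the authors' value table, which raised the median of all genes by 0.12 and 0.13, and 0.31 with the mean over probes. The 3 genes at least 1.5-fold higher became 1 with normexp, 1 on the raw median signal and 1 among the brighter genes, where only 7 were measured. The share of all genes at least 1.5-fold higher also fell, from 1.21% to 0.24%, 0.26% and 0.28% in these settings. On the raw median signal Egln3, at 0.584, lay just below the 1.5-fold limit. The cause of the smaller counts was not tested, apart from the fewer genes in the last setting. The members' other counts stayed within 1.5 times; the wider lists' counts at 1.2-fold moved by more with median scaling, such as glycolysis from 3 to 9. Normexp used the median signal. Eno2 was 0.52 with normexp, 0.49 on the raw signal and 1.30 by its dimmer probe. No paired analysis was possible because each dose has 1 array, and leaving out a replicate was not possible for the same reason. The dim signals of Eno2 limit its fold.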

Other observations

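Enzymes that use oxygen and 2-oxoglutarate, the class that holds Egln1, Egln3, P4ha1 and Kdm3a, included genes at least 1.2-fold different in both directions. Of 49 such genes 43 were measured, with a median log2 difference of 0.05 and 29 above the median of all genes (as 50% of all genes are). At least 1.2-fold higher were 4 (8.66% of all genes) and at least 1.2-fold lower 4 (18.1% of all genes). With each array scaled to its median, 12 were higher (19.9% of all genes) and 3 lower. The largest differences were those of the histone demethylase Kdm4d (1.16, from 25.1 to 64.4), Egln3 (0.65), the histone demethylase Kdm4a (0.54, from 17.4 to 29.2) and the DNA demethylase Tet2 (−0.44, from 43.8 to 37.1). Plod2, a collagen lysyl hydroxylase that hypoxia induces, differed by 0.42.

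Of 17 mitophagy genes 15 were measured, with a median of 0.06. By difference, Bnip3 was second among them after the autophagy receptor Optn (0.69, from 21.4 to 39.8, at a spot with 2-fold different neighbours). Pink1, a kinase of the other main mitophagy route, differed by −0.08 (0.04 with median scaling), and the autophagy kinase Ulk1 by −0.29 (other probe −0.03). Of the VEGF receptors, Nrp2 differed by 0.15 and Flt1, near background, by −0.26, while Kdr and Flt4 were not well above background on either array.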
